A study of Mus musculus with 20 samples.

Results

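The chemokine system of mouse skin was described from 61 genes: 39 chemokine ligands, 18 signalling receptors and 4 atypical receptors. They were chosen by symbol alone, as the CC and CXC ligands and receptors with a number in their name together with Cx3cl1, Cx3cr1, Xcl1, Xcr1 and Ackr1 to Ackr4. They are 61 of 21070 genes with a coding symbol, among which immunoglobulin and T cell receptor genes and all members of the family are counted. The deposited table holds 46744 lines. Where a symbol stood on several lines, as for 4 of the 61 genes, the line with the highest mean was used.

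RNA was taken from total skin of 20 C57BL/6 mouse samples, depleted of ribosomal RNA and sequenced as directional libraries in reads of 75 bases. The conditional knockout (cKO) groups carried the label Sod2-/- and were sampled at 100 days (n = 3) and 300 days (n = 3); Sod2 encodes the mitochondrial superoxide dismutase. Control skin, labelled Sod2+/+, came from mice of 50 days (n = 5), 100 days (n = 2), 300 days (n = 3) and, oldest, 700 days (n = 4). The labels name neither the promoter nor the cells in which Sod2 was deleted, although the series title speaks of fibroblasts, and they do not say which of the named depletion kits a sample had.

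The deposited values are FPKM, fragments scaled to transcript length and to the mapped total of a library, with 1 value for each group. There was therefore no spread between samples, read depth is unknown, and every difference below is a difference between group values without a test or an error. Groups were compared by log2 ratios of (FPKM + 1), which understate the change of low genes, and only ratios of size 1 or more were counted, as higher or as lower. The samples of 100 and 300 days share a title prefix and those of 50 and 700 days share another, so no ratio was taken between these sets.

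Chemokines are small secreted proteins that bind heptahelical receptors on leukocytes and direct where these cells move. In skin, keratinocytes, fibroblasts, endothelium and macrophages make them, and the sets of receptors on T cells, dendritic cells, monocytes and granulocytes decide which cells enter or leave. Homeostatic chemokines such as Cxcl12, Cxcl13 and Ccl21 organise tissues and lymphoid organs, inflammatory chemokines are induced by cytokines and microbial products, and atypical receptors bind chemokines without the usual G protein signal and remove them.

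Sequences bear on the readout in the first place through gene copies. Ccl21a and Ccl21b on chromosome 4 differ at 2 of 402 coding bases (99.5% identity), and Ccl27a and Ccl27b differ at 3 of 363 (99.2%). Of all 75-base stretches in their transcripts, 100% of those of Ccl21b, 98% of those of Ccl27b, 61.3% of those of Ccl21a and 55.5% of those of Ccl27a also occur in transcripts of other genes (GENCODE M21, GRCm38). The coding bases 10 to 84 of the first pair and 269 to 343 of the second pair are shown because a read of that length can tell the copies apart only at the bases in capitals.
Ccl21a: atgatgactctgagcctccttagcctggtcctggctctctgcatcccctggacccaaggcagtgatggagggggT
Ccl21b: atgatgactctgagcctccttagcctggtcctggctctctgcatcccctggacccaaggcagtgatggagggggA
Ccl27a: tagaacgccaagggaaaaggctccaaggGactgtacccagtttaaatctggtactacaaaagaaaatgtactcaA
Ccl27b: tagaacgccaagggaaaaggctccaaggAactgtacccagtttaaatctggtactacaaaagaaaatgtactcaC
Ccl21a, Ccl21b and Ccl27b were listed at 0 in all 6 groups while Ccl27a was the highest member in every group, and reads from the shared stretches of a pair cannot be told apart.

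Promoters are shown for 4 genes on which results below turn, as the 250 bases before the annotated start in RefSeq (GRCm38.p6). Capitals mark matches to GGGNNTTTC, an NF-kB-like motif, in Cxcl2 (chr5:90903649-90903898, plus strand), to TATAAA in Cxcl13 (chr5:95956689-95956938, plus strand) and Cxcl15 (chr5:90794284-90794533, plus strand), and to TGANTCA, the AP-1 motif, in Ccl27a (chr4:41770213-41770462, minus strand, 1 of 3 starts in the table).
Cxcl2: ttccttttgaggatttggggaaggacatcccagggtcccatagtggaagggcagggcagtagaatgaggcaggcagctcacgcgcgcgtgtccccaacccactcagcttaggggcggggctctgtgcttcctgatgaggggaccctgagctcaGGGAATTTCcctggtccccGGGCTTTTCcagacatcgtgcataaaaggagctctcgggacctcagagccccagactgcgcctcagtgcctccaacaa
Cxcl13: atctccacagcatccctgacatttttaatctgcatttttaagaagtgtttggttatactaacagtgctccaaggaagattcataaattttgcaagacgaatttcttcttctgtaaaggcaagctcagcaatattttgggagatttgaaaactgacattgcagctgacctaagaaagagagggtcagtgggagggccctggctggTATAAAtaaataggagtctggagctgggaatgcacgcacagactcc
Cxcl15: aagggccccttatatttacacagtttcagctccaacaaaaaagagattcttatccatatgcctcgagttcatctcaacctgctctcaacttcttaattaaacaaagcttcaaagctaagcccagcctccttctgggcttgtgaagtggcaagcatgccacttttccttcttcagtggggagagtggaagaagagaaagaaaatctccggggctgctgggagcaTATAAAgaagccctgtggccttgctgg
Ccl27a: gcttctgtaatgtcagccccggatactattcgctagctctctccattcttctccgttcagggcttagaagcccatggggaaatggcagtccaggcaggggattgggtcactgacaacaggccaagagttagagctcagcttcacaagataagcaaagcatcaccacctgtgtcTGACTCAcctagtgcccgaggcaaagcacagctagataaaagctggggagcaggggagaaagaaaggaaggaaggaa
The Cxcl2 matches began 97 and 78 bases before the start. The TATA matches began 46 bases before the start in Cxcl13 and 27 in Cxcl15, and the AP-1 match began 77 bases before the start in Ccl27a. On either strand, GGGNNTTTC stood in 12 of the 52 member promoters in the table (45 of the 61 genes), against 3.72% of all 32851 promoters. TGANTCA stood in 6 of the 52, against 6.75% of all promoters, and TATAAA in 14 of the 52, against 12.4%. The fixed letters of these motifs do not allow matches of different motifs to overlap, and none did (0 of 32851). The motif to mark was set by hand for each gene. Of the Ccl27a starts, the one with the most AP-1 matches was taken, so its match is a result of that choice. A match describes letters in the window, not a bound site.

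The family was dominated by 1 gene. Ccl27a, the keratinocyte chemokine that attracts Ccr10-bearing T cells, had 173 FPKM in cKO against 128 FPKM in control skin at 100 days, 127 against 147 FPKM at 300 days, and 428 FPKM at 700 days against 824 FPKM at 50 days in control skin. It made up 24.9% to 40% of the summed FPKM of the 61 genes in the groups of 100 and 300 days, and 64.7% in 700-day and 76.4% in 50-day control skin. Without it, the members added up to 259 FPKM in cKO against 266 FPKM in control skin at 100 days, 244 against 443 FPKM at 300 days, and 233 in 700-day and 255 in 50-day control skin. Among the groups of 100 and 300 days, control skin of 300 days had the highest such sum.

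Of the 61 genes, 25 reached 5 FPKM in some group, 43 reached 1 FPKM, and 18 stayed below 1 FPKM in all 6 groups (at most 0.826, Cxcl11). Beside Cxcl11, these were Ccl1, Ccl17, Ccl19, Ccl21c, Ccl28, Cxcl1, Cxcl3, Cxcl5, Ccr3, Ccr8, Cxcr1, Cxcr2 and Xcr1, and 4 genes listed at 0 throughout, the 3 copies named above and Ccl26. Ccr1, Ccr9 (on a line shared with Gm17200), Ccr10, Cx3cr1 and Cxcl17 reached 1 FPKM but not 5, with at most 4.15 FPKM (Ccr9), and were counted in no comparison. A 0 in such a table can be a failed estimate, so it is given only as listed at 0. A mean of at least 1 FPKM was passed by 34 of the 61 genes; Ccr6 (0.67) and Ccr1 (0.951) lay just below it, and Ccr10 (1.02) and Ccl2 (1.06) just above. Of the 34, 9 passed only through the group in which they were highest (Ccl2, Ccl5, Ccl12, Ccl22, Ccl24, Ccr7, Ccr10, Cxcl2 and Cxcl15), so counts are also given over all 61 genes. Without a filter, 56 members were above 0 in some group of 100 or 300 days, and control skin of 300 days held the highest value of these 4 groups for 28 of them (50%), beside 22.1% of 19381 genes.

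**Figure D1:**
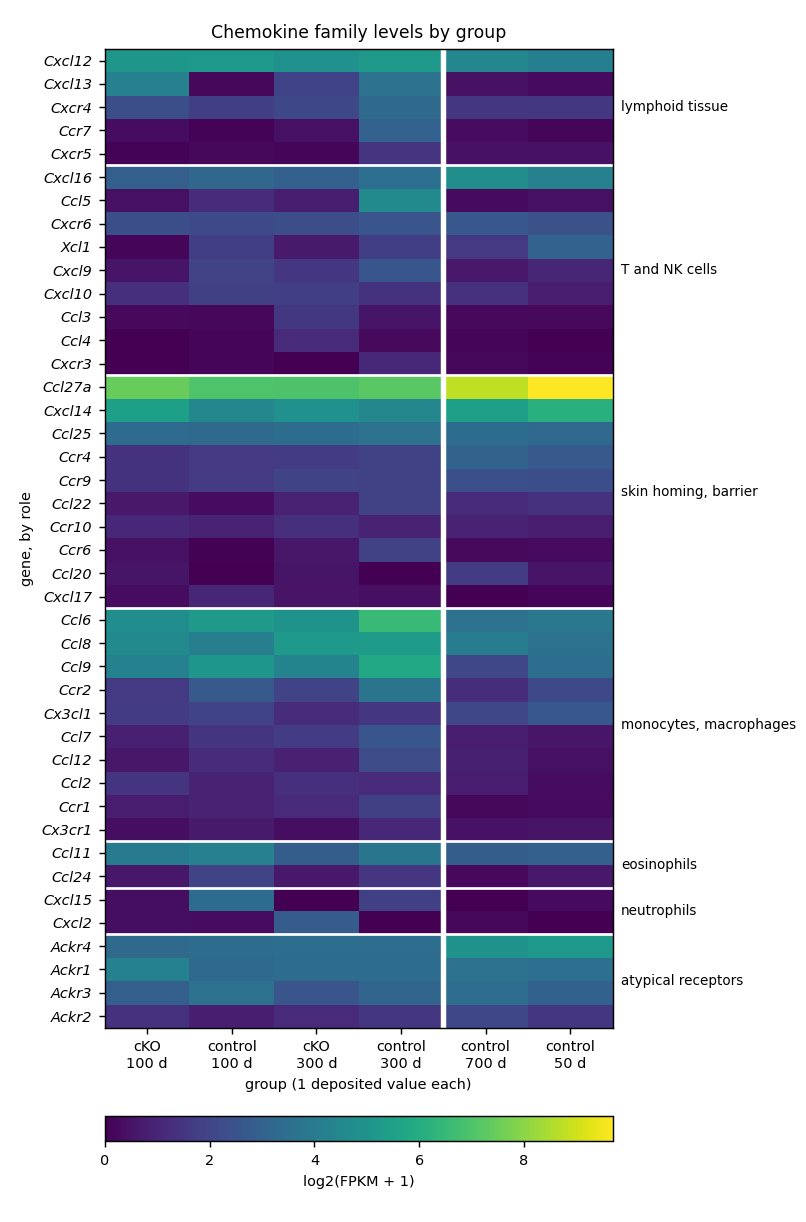
Colour gives log2(FPKM + 1) for 42 of the 43 genes with at least 1 FPKM in some group, 1 gene a row by role, with a column for each of the 6 groups and a white line between the title prefixes. Ccl27a is the brightest row in all groups, and Ccl5, Ccr7 and Cxcr5 are brightest in the 300-day control column.

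Some facts of the samples bear on all comparisons. Sod2 had 17.6 FPKM in cKO against 27.7 FPKM in control skin at 100 days and 16.8 against 23.5 FPKM at 300 days. The 4 Y-linked genes examined had 14.7 to 45.1 FPKM in cKO skin at both ages and in 700-day control skin, and 0 to 0.347 FPKM in the control groups of 50, 100 and 300 days. Sex therefore cannot be told apart from genotype at 100 or 300 days, nor from age between 700 and 50 days. The 10 adipocyte markers summed to 1927 FPKM in cKO against 6408 FPKM in control skin at 100 days, with 10 of 10 lower, and to 2289 against 4593 FPKM at 300 days, with 7 of 10 lower. Their part in the chemokine values was not tested.

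At 300 days, lower members in cKO skin outnumbered higher ones. Over the 34 genes that passed, 12 were lower, against 5.24% of all genes, and 1 was higher, against 1.97%; without a filter, 15 of 61 were lower, against 3.92% of genes, and 2 higher, against 1.34%. The median log2 ratio was -0.57 over the 34 genes and -0.21 over all 61, beside -0.01 over all genes, and 26 of the 34 (76.5%) lay below 0, beside 51.3% of genes. Without a filter, 8 of 39 ligands and 7 of 18 signalling receptors were lower, and none of the 4 atypical receptors.

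The lymphoid members guide B and T cells within lymph nodes and follicles. Ccr7, the receptor that takes dendritic cells and T cells to lymph nodes, had 0.368 FPKM in cKO against 7.20 FPKM in control skin at 300 days, 0.246 against 0.0811 FPKM at 100 days, and 0.256 FPKM at 700 days against 0.0908 FPKM at 50 days in control skin. Cxcr5, the receptor of follicular B and T cells, had 0.128 FPKM in cKO against 1.77 FPKM in control skin at 300 days (log2 ratio -1.30). Cxcr4, the receptor for Cxcl12, had 3.34 FPKM in cKO against 9.19 FPKM in control skin at 300 days, 4.04 against 2.44 FPKM at 100 days, and 1.87 FPKM at 700 days against 1.98 FPKM at 50 days in control skin. Among the groups of 100 and 300 days, all 3 receptors were highest in 300-day control skin. The log2 ratios of cKO to control skin at 300 days were -2.58 for Ccr7 and -1.23 for Cxcr4. At 100 days their ratios were 0.20 for Ccr7, -0.13 for Cxcr5 and 0.55 for Cxcr4, short of the size counted. In RNA from whole tissue, fewer cells of a type and less RNA per cell cannot be told apart.

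Cxcl13, the B cell chemokine made by follicular stroma (chr5:95956951-95961068), went the opposite ways at the 2 ages. It had 17.7 FPKM in cKO against 0.152 FPKM in control skin at 100 days, 2.91 against 11.1 FPKM at 300 days, and 0.351 FPKM at 700 days against 0.211 FPKM at 50 days in control skin. The log2 ratio was 4.02 at 100 days and -1.63 at 300 days. It was the only member past the size counted in opposite directions. Cxcl12, the stromal chemokine that binds Cxcr4, had 33.8 FPKM in cKO against 34.6 FPKM in control skin at 100 days, 28.7 against 36.3 FPKM at 300 days, and 21.4 FPKM at 700 days against 17.2 FPKM at 50 days in control skin. Its log2 ratios lay between -0.33 and 0.30 over the 5 comparisons.

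Markers of lymphocytes and of lymph node tissue summed lower in cKO skin at 300 days, where Ccr7, Cxcr5, Cxcr4 and Cxcl13 were also lower. At 300 days, the 12 B cell markers summed to 14.7 FPKM in cKO against 211 FPKM in control skin, with 10 of the 10 that passed lower (median log2 ratio -3.73) and Ms4a1, Pax5 and Fcrla listed at 0 in cKO skin. The 14 measured T cell markers summed to 23.0 against 167 FPKM, with 11 of 12 lower (median -1.79) and Cd8b1 listed at 0 in cKO skin. The 11 measured genes of lymph node stroma, high endothelium and follicular dendritic cells summed to 76.9 against 221 FPKM, with 4 of 6 lower. Most of the cKO sum came from Clu (53.4 FPKM), Enpp2 (13.6 FPKM) and Fcgr2b (8.45 FPKM), which had 75.6, 23.3 and 23.5 FPKM in control skin. Glycam1, a mucin of high endothelial venules, was listed at 0 in cKO skin of 300 days, against 73.6 FPKM in control skin. In the groups other than 300-day control skin, Glycam1 lay between 0 and 0.515 FPKM, so that control group stood apart. Glycam1 and Ltb passed the filter only through it. Chst4, Fut7, Madcam1 and Lta were also listed at 0 in cKO skin of 300 days. They were low in control skin of that age, with 0.518, 1.25, 0.196 and 0.642 FPKM. At 100 days, the B cell sum was 9.36 FPKM in cKO against 9.15 FPKM in control skin, the T cell sum 15.4 against 13.3 FPKM and the lymph node sum 82.9 against 75.3 FPKM, none of these lists had a gene lower, and Cxcl13 was high in cKO skin. Dendritic and Langerhans cells also carry Ccr7. Their 12 genes with a line of their own summed to 160 FPKM in cKO against 431 FPKM in control skin at 300 days, with 6 of 10 lower (median -1.41). At 100 days these genes summed to 156 against 234 FPKM, with 0 lower. The part of these cells in the chemokine values was not tested.

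**Figure D2:**
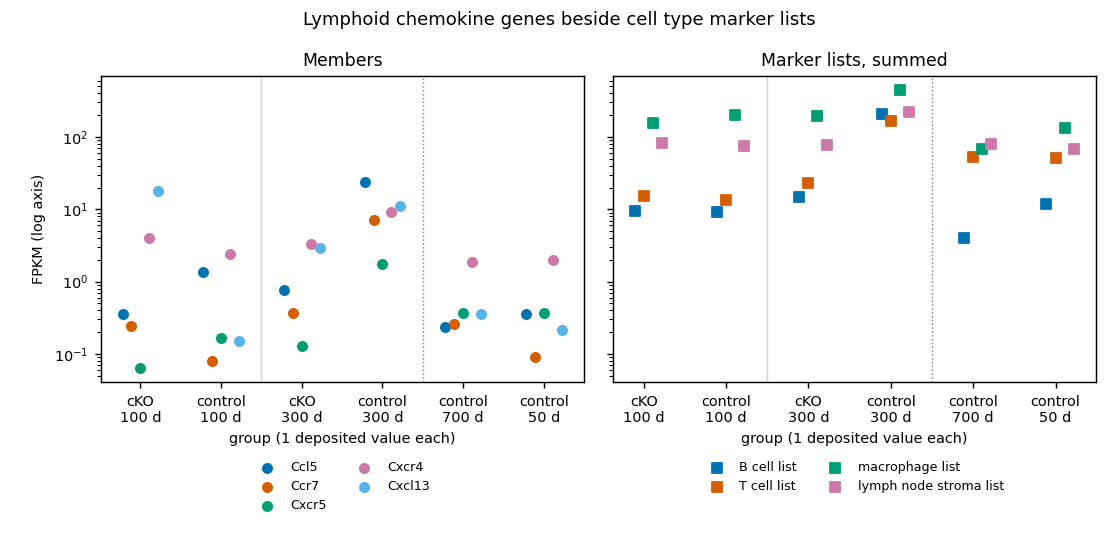
Points give FPKM on a log axis for 5 members (left) and the summed FPKM of 4 marker lists (right) in each of the 6 groups. Among the groups of 100 and 300 days, Ccl5, Ccr7, Cxcr5 and Cxcr4 are highest in 300-day control skin, as are all 4 lists. Cxcl13 is highest in 100-day cKO skin.

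T and NK cell attracting members made up the next group. Ccl5, the chemokine of activated T cells (chr11:83525778-83530518), had 0.756 FPKM in cKO against 24.1 FPKM in control skin at 300 days, 0.363 against 1.36 FPKM at 100 days, and 0.233 FPKM at 700 days against 0.352 FPKM at 50 days in control skin. Among the groups of 100 and 300 days, Ccl5 stood apart in 300-day control skin alone (log2 ratio -3.84 at 300 days and -0.79 at 100 days).

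Xcl1, the chemokine that draws cross-presenting dendritic cells, had 0.132 FPKM in cKO against 2.45 FPKM in control skin at 100 days, 0.642 against 2.47 FPKM at 300 days, and 2.06 FPKM at 700 days against 7.32 FPKM at 50 days in control skin. The log2 ratio was -1.61 at 100 days and -1.08 at 300 days, so Xcl1 was counted as lower at each age. Cxcl9, an interferon-gamma induced ligand of Cxcr3, was also lower at both ages, with 0.472 FPKM in cKO against 2.99 FPKM in control skin at 100 days and 1.86 against 4.99 FPKM at 300 days (-1.44 and -1.07). Its receptor Cxcr3 was listed at 0 in cKO skin of 300 days, against 1.20 FPKM in control skin. Cxcl10, a further ligand of Cxcr3, lay between 1.48 and 2.54 FPKM in these 4 groups and passed the size in no comparison.

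Cxcl16 and Cxcr6 form a pair that holds T cells in skin. Cxcl16 had 6.70 FPKM in cKO against 8.19 FPKM in control skin at 100 days, 6.83 against 10.6 FPKM at 300 days, and 26.4 FPKM at 700 days against 17.6 FPKM at 50 days in control skin. Cxcr6 had 4.03 FPKM in cKO against 3.40 FPKM in control skin at 100 days, 4.02 against 4.82 FPKM at 300 days, and 5.19 FPKM at 700 days against 4.27 FPKM at 50 days in control skin. Neither passed the size counted in any comparison. Of the 75-base stretches of Cxcl16, 18.2% also occur in transcripts of other genes, Zmynd15 among them. Cxcr6 lies within Fyco1.

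Monocyte and macrophage members followed. Ccl6 and Ccl9, mouse chemokines that act on Ccr1, are neighbours on chromosome 11. Ccl6 had 29.6 FPKM in cKO against 93.8 FPKM in control skin at 300 days, 26.1 against 35.8 FPKM at 100 days, and 11.3 FPKM at 700 days against 13.6 FPKM at 50 days in control skin. Ccl9 had 19.1 FPKM in cKO against 54.2 FPKM in control skin at 300 days, 18.1 against 32.9 FPKM at 100 days, and 3.21 FPKM at 700 days against 10.3 FPKM at 50 days in control skin. Both were lower in cKO skin at 300 days, with log2 ratios of -1.63 for Ccl6 and -1.46 for Ccl9, and neither passed the size at 100 days.

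Ccr2, the receptor that brings inflammatory monocytes into tissue, had 2.98 FPKM in cKO against 12.3 FPKM in control skin at 300 days, 2.10 against 5.50 FPKM at 100 days, and 1.42 FPKM at 700 days against 3.35 FPKM at 50 days in control skin. Ccr2 was counted as lower at each age, with log2 ratios of -1.74 at 300 days and -1.07 at 100 days. Its ligand Ccl12 was lower at 300 days, with 0.835 FPKM in cKO against 3.60 FPKM in control skin (-1.33). Ccl7, which also binds Ccr2, had 2.29 FPKM in cKO against 5.11 FPKM in control skin at 300 days, 0.807 against 1.77 FPKM at 100 days, and 0.687 FPKM at 700 days against 0.498 FPKM at 50 days in control skin, and Ccl2 had 1.5 against 1.21 FPKM at 300 days. Ccl7 (-0.89) fell short of the size, and Ccl2 was not lower in cKO skin.

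Ccl8, a chemokine of resident macrophages, had 23.3 FPKM in cKO against 16.5 FPKM in control skin at 100 days, 36.5 against 40.4 FPKM at 300 days, and 16.0 FPKM at 700 days against 11.4 FPKM at 50 days in control skin. Cx3cl1, a membrane-bound chemokine, had 2.32 FPKM in cKO against 2.86 FPKM in control skin at 100 days, 1.32 against 1.91 FPKM at 300 days, and 3.13 FPKM at 700 days against 5.13 FPKM at 50 days in control skin. Neither was counted in a genotype comparison. The 14 macrophage markers summed to 194 FPKM in cKO against 441 FPKM in control skin at 300 days, with 7 of 14 lower, and to 156 against 198 FPKM at 100 days, with 2 of 14 lower. None of the 14 was listed at 0 in a group, and their part in the chemokine values was not tested.

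Of 15 members with skin homing and barrier roles, 7 passed the filter and 0 of these were counted between the genotypes at either age, beside 5.24% of all genes lower and 1.97% higher at 300 days. Cxcl14, a chemokine of keratinocytes, had 42.8 FPKM in cKO against 21.2 FPKM in control skin at 100 days, 29.1 against 21.1 FPKM at 300 days, and 43.0 FPKM at 700 days against 70.1 FPKM at 50 days in control skin. Its log2 ratio of 0.98 at 100 days fell just short of the size. Ccl25, the ligand of Ccr9, had 9.56 FPKM in cKO against 9.21 FPKM in control skin at 100 days, 9.79 against 11.2 FPKM at 300 days, and 9.67 FPKM at 700 days against 8.83 FPKM at 50 days in control skin. Ccl25 thus stayed between 8.83 and 11.2 FPKM. Ccr4, the receptor of skin-homing T cells, had 1.66 FPKM in cKO against 2.06 FPKM in control skin at 100 days, 2.18 against 2.68 FPKM at 300 days, and 7.59 FPKM at 700 days against 5.58 FPKM at 50 days in control skin. Below the filter, Ccr6, a receptor of B cells and of interleukin-17 producing T cells, was lower at 300 days, with 0.542 FPKM in cKO against 2.65 FPKM in control skin (-1.24). The 12 keratinocyte markers summed to 3046 FPKM in cKO against 2410 FPKM in control skin at 100 days and to 4080 against 2491 FPKM at 300 days.

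The eosinophil chemokine Ccl11 (eotaxin) had 14.4 FPKM in cKO against 17.8 FPKM in control skin at 100 days, 6.25 against 12.7 FPKM at 300 days, and 6.18 FPKM at 700 days against 6.75 FPKM at 50 days in control skin. Its genotype ratio was -0.28 at 100 days and -0.92 at 300 days. Ccl24, a further ligand of the eosinophil receptor Ccr3, was lower at 100 days, with 0.531 FPKM in cKO against 2.92 FPKM in control skin (log2 ratio -1.36), and had 0.562 against 1.92 FPKM at 300 days (-0.90). Ccr3 itself stayed below 1 FPKM in all 6 groups.

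Only Cxcl2 and Ccl3 were counted as higher in cKO skin at 300 days, Ccl3 below the filter. Cxcl2, a cytokine-induced ligand of Cxcr2 (chr5:90903871-90905938), had 6.03 FPKM in cKO skin of 300 days and was listed at 0 in control skin of that age. It had 0.298 FPKM in cKO against 0.255 FPKM in control skin at 100 days, and 0.165 FPKM at 700 days in control skin, where it was listed at 0 at 50 days. Cxcl2 was thus above 1 FPKM in the 300-day cKO group alone. Ccl3, a ligand of Ccr1, had 1.97 FPKM in cKO against 0.463 FPKM in control skin at 300 days (log2 ratio 1.02), and its neighbour Ccl4 had 1.30 against 0.178 FPKM (0.96), just short of the size. Il1b, a cytokine that induces these genes, had 8.18 FPKM in cKO against 0.488 FPKM in control skin at 300 days (2.63). The 12 neutrophil markers summed to 50.9 FPKM in cKO against 22.7 FPKM in control skin at 300 days, of which S100a8 and S100a9, also made by keratinocytes, had 19.9 and 21.9 FPKM in cKO skin against 8.96 and 2.69 FPKM in control skin. Lcn2, a further gene of the list, went the other way, with 1.73 against 5.98 FPKM, so that of the 4 that passed 2 were higher and 1 lower. Ly6g and Mpo were listed at 0 in both groups, Elane and Camp in cKO skin and Retnlg in control skin. The part of Il1b or of neutrophils in the Cxcl2 value was not tested.

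Cxcl15, a chemokine known from mouse lung and other epithelia, had 0.283 FPKM in cKO against 9.85 FPKM in control skin at 100 days, was listed at 0 in cKO against 2.59 FPKM in control skin at 300 days, and had 0.0156 FPKM at 700 days against 0.209 FPKM at 50 days in control skin. Cxcl15 was counted as lower at each age, and its log2 ratio was -3.08 at 100 days. The 10 genes of sebaceous and simple secretory epithelium summed to 399 FPKM in cKO against 2406 FPKM in control skin at 100 days, with 8 of 10 lower (median -4.33) and 1 higher, and to 540 against 1295 FPKM at 300 days, with 8 of 10 lower. Scd1, a lipid desaturase of sebocytes and adipocytes, made up most of these sums, with 372 against 1985 FPKM at 100 days. The genes counted as lower at both ages were Scd1, Krt7, Krt8, Krt18, Krt19, Ltf, Wfdc2 and Aqp5. The sebaceous gene Awat1 and Elovl3, also of this list, lay above control skin in cKO skin at both ages. For Awat1, the 100-day values were 2.29 FPKM in cKO skin and 0.536 FPKM in control skin. Its log2 ratio was 1.10 at that age and 0.61 at 300 days. Elovl3 had ratios of 0.79 and 0.88 at these ages, short of the size. Krt18 of that list had 2.67 FPKM in cKO against 81.3 FPKM in control skin at 100 days. The part of the genes of this list in the Cxcl15 value was not tested.

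The atypical receptors were counted in no comparison. Ackr1, which binds many inflammatory chemokines on venules, had 18.3 FPKM in cKO against 8.92 FPKM in control skin at 100 days, 9.78 against 9.74 FPKM at 300 days, and 11.7 FPKM at 700 days against 10.8 FPKM at 50 days in control skin. Its value is shared in the table with Cadm3, which overlaps it on the same strand. Ackr3, a scavenger of Cxcl12, had 6.68 FPKM in cKO against 11.5 FPKM in control skin at 100 days, 4.92 against 7.85 FPKM at 300 days, and 9.91 FPKM at 700 days against 6.98 FPKM at 50 days in control skin. Its log2 ratios of cKO to control skin were -0.70 at 100 days and -0.58 at 300 days, short of the size. Ackr4, a scavenger of Ccl19, Ccl21 and Ccl25, had 9.30 FPKM in cKO against 9.80 FPKM in control skin at 100 days, 10.3 against 9.90 FPKM at 300 days, and 30.8 FPKM at 700 days against 35.3 FPKM at 50 days in control skin. Of its 75-base stretches, 12% also occur in transcripts of other genes, the overlapping Acad11 among them. Ackr2 lay between 0.755 and 3.15 FPKM in the 6 groups.

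At 100 days, fewer members were counted than at 300 days, which was not tested as a difference. Over the 34 genes, 6 were lower in cKO skin, against 4.41% of all genes, and 1 was higher, Cxcl13, against 2.27%; over all 61, the same counts stood against 2.87% lower and 1.58% higher. The median log2 ratio was -0.21 over the 34 genes and 0.00 over all 61, beside 0.02 over all genes. The lower members included Ccl24, Ccr2, Cxcl9, Cxcl15 and Xcl1, and 5 of the 6, Ccl24 not among them, were also lower at 300 days, where they were 5 of the 15 counted without a filter. Over all genes without a filter, 174 were lower at both ages, 28.8% of those lower at 100 days and 21.1% of those lower at 300 days. Both comparisons carry the difference in Y-linked transcripts given above. The genotype comparisons at the 2 ages share no samples.

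**Figure D3:**
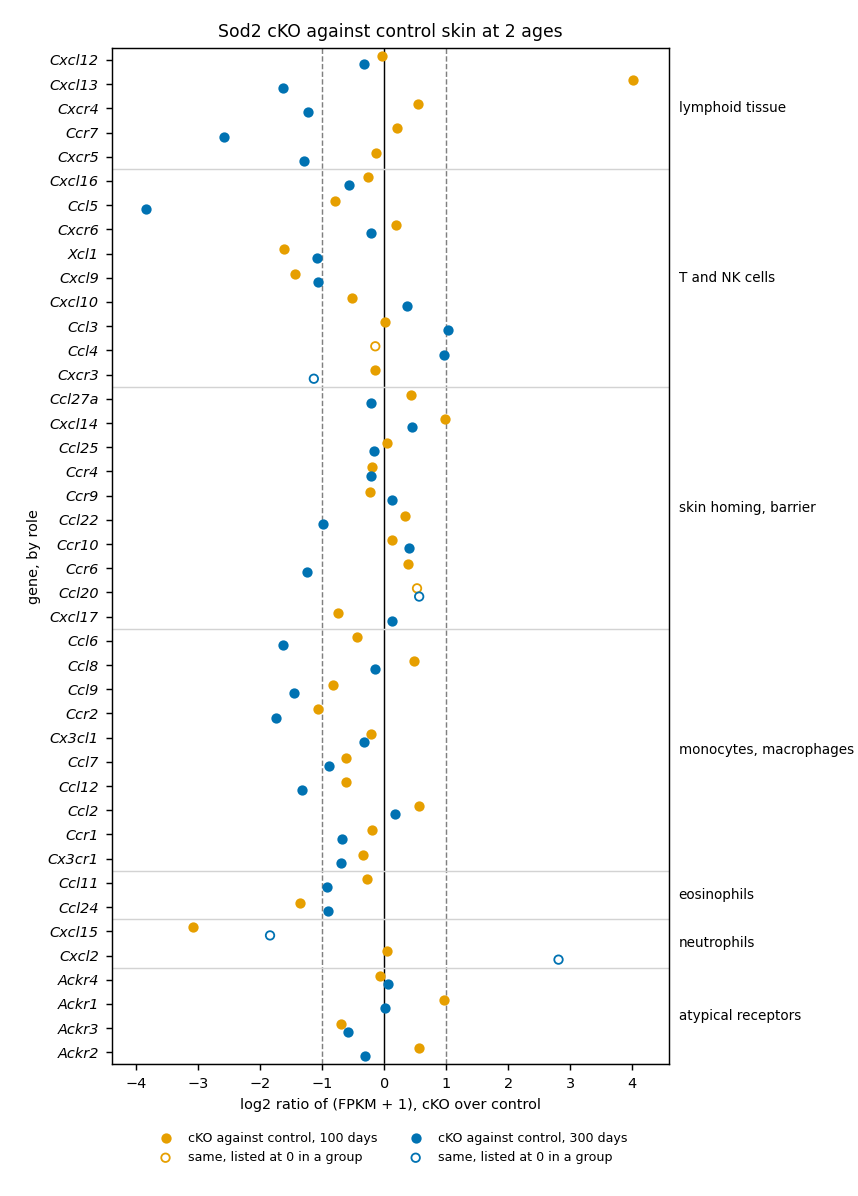
Points give log2 ratios of (FPKM + 1), cKO over control, at 100 and 300 days for 42 of the 43 genes with at least 1 FPKM in some group. Dashed lines mark the size counted, and open points are listed at 0 in a compared group. Cxcl13 lies right of the upper line at 100 days and left of the lower line at 300 days, and Ccl5 and Ccr7 lie far left at 300 days only.

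Within control skin, the 300-day group was above the 100-day group for many of the same kinds of member. Over the 34 genes, 10 were higher, against 3.55% of all genes, and 1 was lower, Cxcl15, against 1.1%; without a filter, 12 of 61 were higher, against 2.79%, and 1 lower, against 0.778%. Among the 12 were Ccl5, Ccl6, Ccl7, Ccl8, Ccl22, Ccr2, Ccr6, Ccr7, Cxcl13, Cxcr4 and Cxcr5. The largest log2 ratios were 3.41 for Ccl5, 3.39 for Cxcl13 and 2.92 for Ccr7. Ccl22, a ligand of Ccr4 made by dendritic cells, had 2.77 FPKM at 300 days against 0.251 FPKM at 100 days (1.59), and Ccl8 had a ratio of 1.24. Dendritic and Langerhans cell genes summed to 431 FPKM at 300 days against 234 FPKM at 100 days, with 4 of 10 higher. This comparison shares its 300-day group with the genotype comparison at 300 days, so the 2 sets of values are not independent. B cell markers summed to 211 FPKM at 300 days against 9.15 FPKM at 100 days and T cell markers to 167 against 13.3 FPKM, and their part was not tested.

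Within cKO skin, few members were counted. Over the 34 genes, 1 was higher at 300 than at 100 days, Cxcl2 (log2 ratio 2.44), against 2.52% of all genes, and 2 were lower, Ccl11 (-1.09) and Cxcl13 (-2.26), against 1.54%. Without a filter, 3 of 61 were higher, Cxcl2 with Ccl3 (1.34) and Ccl4, which was listed at 0 at 100 days, against 1.63% of genes, and 2 were lower, against 1.23%. Il1b had 8.18 FPKM at 300 days against 0.698 FPKM at 100 days in cKO skin. The B cell sum was 14.7 FPKM at 300 days against 9.36 FPKM at 100 days, and the T cell sum 23.0 against 15.4 FPKM.

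Between 700-day and 50-day control skin few members were counted. Over the 34 genes, 0 were higher, against 0.658% of all genes, and 2 were lower, Ccl9 (log2 ratio -1.43) and Xcl1 (-1.44), against 3.24%. Without a filter, 1 of 61 was higher, Ccl20, against 0.427% of genes, and 2 lower, against 2%. Ccl20, the ligand of Ccr6 made by keratinocytes, had 2.25 FPKM at 700 days against 0.449 FPKM at 50 days (1.17), and it was listed at 0 in control skin of 100 and 300 days. The median log2 ratio was 0.06 over the 34 genes, beside -0.03 over all genes.

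The largest difference in level between 700-day and 50-day control skin was that of Ccl27a, 428 against 824 FPKM, with a log2 ratio of -0.95 just short of the size. Its receptor Ccr10 had 0.887 against 0.686 FPKM, and Cxcl14 had a ratio of -0.69. Cxcl16 (0.56) and Cxcl10 (0.61) lay on the other side of 0. The keratinocyte markers summed to 10823 FPKM at 700 days against 8736 FPKM at 50 days, the skeletal muscle markers to 84.1 against 2999.6 FPKM and the adipocyte markers to 212 against 843 FPKM. The macrophage markers summed to 68.0 against 135 FPKM, with 5 of 14 lower, beside the lower Ccl9. How far these shifts enter the FPKM of the chemokine genes was not tested.

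**Figure D4:**
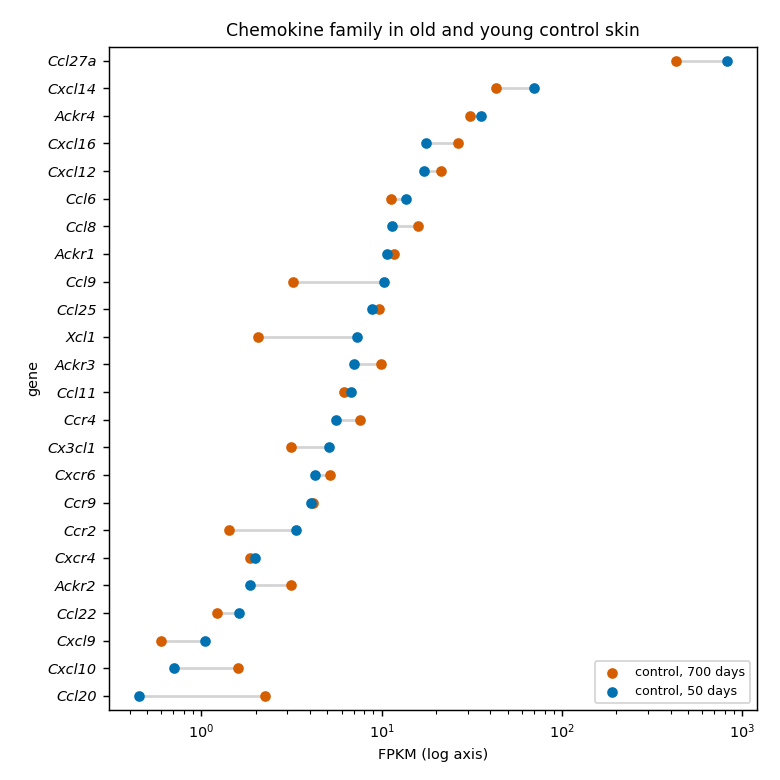
Points give FPKM on a log axis in 700-day and 50-day control skin for most members with at least 1 FPKM in either group, ordered by the 50-day value. Ccl27a is at the top, with 428 FPKM at 700 days and 824 FPKM at 50 days, and Ccl9 and Xcl1 are the 2 members counted as lower at 700 days.

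Ligand and receptor values were set side by side for 33 known pairs. In cKO against control skin at 300 days, both partners were lower in 4 pairs without a filter, among them Cxcl13 and Cxcr5, Cxcl9 and Cxcr3, and Ccl12 and Ccr2, and in 2 pairs where both passed the filter. Single genes were lower in 3.92% of all genes without a filter in that comparison, which is not a background for both partners of a pair. No background for pairs was computed, and receptors such as Ccr2 and Cxcr3 stand in several pairs. Between 300-day and 100-day control skin, both were higher in 3 pairs without a filter, among them Cxcl13 and Cxcr5 and Ccl7 and Ccr2, and in 2 with it. The share of single genes higher there, 2.79% without a filter, is likewise not a background for pairs. In the other 3 comparisons, 0 of the 33 pairs had both partners counted in the same direction. At 100 days, Cxcl13 was higher in cKO skin while Cxcr5 had 0.0634 FPKM in cKO against 0.166 FPKM in control skin.

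Genes downstream of the receptors and on the path of leukocytes out of vessels were described from lists. Of 36 genes of receptor signalling and migration, 30 had a line of their own and passed. In cKO skin at 300 days 14 of them were lower and 0 higher (median log2 ratio -0.78). At 100 days 2 were lower (-0.15), and 13 were higher in 300-day than in 100-day control skin. The shares over all genes were 5.24% lower at 300 days, 4.41% lower at 100 days and 3.55% higher between the control groups, so the count at 100 days lay near the background. Coro1a, an actin regulator of leukocytes, had 4.70 FPKM in cKO against 58.0 FPKM in control skin at 300 days. Dock2, which activates Rac in lymphocytes, had 3.29 against 24 FPKM, and Rac2, the Rac protein of blood cells, 0.552 against 10.8 FPKM. The broadly expressed Gnai2, a G protein subunit that chemokine receptors use, had 49.8 against 65.7 FPKM and was not counted. Rac1, found in most cells, had 63.7 against 71.7 FPKM and was not counted either.

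Of 15 adhesion genes that passed, 9 were lower in cKO skin at 300 days (median -1.37) and 1 at 100 days, beside the same 5.24% and 4.41% of all genes. Itgb2, a leukocyte integrin chain, had 5.32 FPKM in cKO against 23.1 FPKM in control skin at 300 days. The endothelial gene Pecam1 had 19.3 against 35.2 FPKM and was not counted. Of 8 inducers of chemokines that passed, Il1b was higher and Irf1, a transcription factor induced by interferons, was lower in cKO skin at 300 days (5.56 against 18.5 FPKM), and none was counted at 100 days or between 700 and 50 days.

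Members lie in clusters on the genome, of which 7 held at least 3 members with gaps of at most 500 kb between neighbours (34 genes in all). In the cluster on chr11:83525778-83664683, Ccl5, Ccl9 and Ccl6 were lower in cKO skin at 300 days while Ccl3 was higher. In the nearby cluster on chr11:82035571-82305690, which holds Ccl2, Ccl7, Ccl11, Ccl12, Ccl8 and Ccl1, only Ccl12 was counted at 300 days. Neighbouring genes thus differed in direction. On chr5:90759360-90905938, Cxcl2 was higher and Cxcl15 lower at 300 days, while Cxcl1, Cxcl3 and Cxcl5 stayed below 1 FPKM in every group.

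**Figure D5:**
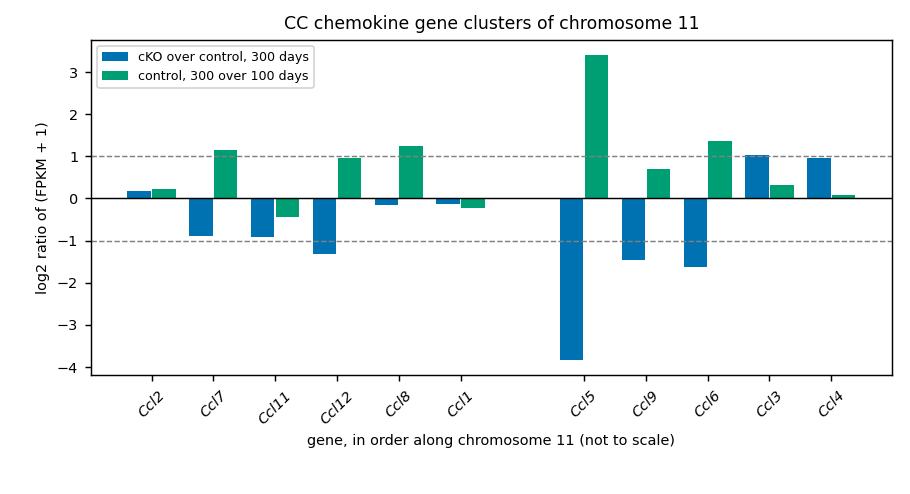
Bars give log2 ratios of (FPKM + 1) for the members of both chromosome 11 clusters in genome order, cKO over control skin at 300 days and control skin at 300 over 100 days, which share the 300-day control group. Ccl5 has the longest bars, -3.84 and 3.41, and Ccl3 is the only gene past the size above 0 in cKO over control skin.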

How the data were processed

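RNA sequencing of total skin was analysed in 20 samples of 6 groups, read from source name and genotype in the labels. Per the submitters' processing notes, HISAT2, Cufflinks and Cuffdiff were used with mm10, with versions, annotation and the way samples were combined not given in the sources used here. FPKM were deposited by the authors, 1 value per group. Depth is unknown, so no interval can be given.

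limma had been planned for values per sample, but with 1 value per group no test was made. From the deposited FPKM, log2 ratios with a pseudocount of 1 were computed over all genes with a coding symbol. These are protein-coding, immunoglobulin and T cell receptor genes of GENCODE M21, with all family members whatever their type. Lines of several symbols were included, with 1 line per symbol (77 symbols had several). The filter, a mean of 1 FPKM or more, left 12762 genes, of which 88 were listed at 0 in some group. Ratios of size 1 or more were counted. The counting was also run on simulated data. That run checks the code only, and it gives no error for the counts of members, many of which are low.

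Members and lists were chosen with earlier results of these data known, so their counts are descriptions. Every member with 5 FPKM or more in some group is given in all 6 groups, members with 1 FPKM or more where they were counted, the rest by range, and of each list up to 4 abundant genes and those beside a member result. Not every gene that this rule names is reported or drawn here, but all are in the counts, medians and sums. List genes were read only where their symbol stood alone on a line, so a list gene that shares a line is left out of its sum and count.

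Sequences are from RefSeq (GRCm38.p6) and GENCODE M21 transcripts (GRCm38), with coordinates counted from 1. Shared stretches were searched at 75 bases and motifs over 250 bases on both strands. Alternatives were pseudocounts of 0.1 and 0.5, no filter, a minimum mean of 5 FPKM, scaling groups to the same median or the same total, and, added after seeing the data, leaving out genes listed at 0 or lines of several symbols. The software was Python 3.11.15 with matplotlib 3.10.9, numpy 2.4.6, pandas 2.3.3 and scipy 1.17.1.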

Additional observations from a re-analysis of the deposited data

Results flagged for a closer look

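Cxcl13, the B cell chemokine, was picked out because its genotype difference had opposite signs at the 2 ages. Its log2 ratio of cKO to control skin was -1.63 at 300 days and 4.02 at 100 days, so the difference between the ages was -5.65. It had 2.91 FPKM in cKO against 11.1 FPKM in control skin at 300 days, and 17.7 against 0.152 FPKM at 100 days. The difference was not tested: only group values were used, so whether every sample of a group moved the same way is not known, and the 100-day control value stands for 2 samples.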

How the results depend on the processing

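No result reversed under any alternative run, and the counts over members moved by more than 1.5 times as follows. Where a count has no share of all genes beside it, it shows only how the setting moved it. Such a count is not read against the background. At a pseudocount of 0.1, 4 members were higher and 5 lower at 700 against 50 days (0 and 2 as reported). The shares of all genes there were 1.18% higher and 6.3% lower. At the same pseudocount, 3 were higher in cKO skin at 100 days (1 as reported) and 2 lower in 300-day against 100-day control skin (1). In cKO skin, 4 were higher at 300 against 100 days (1). At a pseudocount of 0.5 the last count was 3. Without a filter, 1 was higher at 700 days, beside 0.427% of all genes, and 2 were higher in cKO skin at 300 days, beside 1.34%. In cKO skin at 300 against 100 days 3 were higher without a filter, beside 1.63% of all genes. At a mean of at least 5 FPKM only 14 members enter, and 1 was lower at 700 days, beside 3.72% of all genes. At that mean, 0 were higher and 4 lower in cKO skin at 300 days, and 1 was lower at 100 days. Between 300-day and 100-day control skin 4 were higher and 0 lower at that mean, and 0 were higher in cKO skin at 300 against 100 days. Rescaling to a common median gave 2 higher in cKO skin at 100 days, and rescaling to equal totals gave 2 higher in cKO skin at 300 against 100 days. Without genes listed at 0, 0 were higher in cKO skin at 300 days, as Cxcl2 drops out. No paired analysis was possible because the table holds 1 value per group, and for the same reason no sample could be left out in turn. Depth is unknown, so low values such as those of Cxcr3 and Cxcr5 carry an error that cannot be stated.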

Other observations

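Chemokine family relatives whose symbols the rule does not take were also read. Of 15 such genes, 10 passed the filter, and 0 were counted in cKO against control skin at 300 days, beside 5.24% of all genes lower. At 100 days 1 was lower, beside 4.41% of all genes: Cmklr1, a receptor for chemerin, with 3.41 FPKM in cKO against 10.7 FPKM in control skin (log2 ratio -1.40). Pf4, a platelet and megakaryocyte chemokine, had 31.7 FPKM in cKO against 59.8 FPKM in control skin at 300 days, 24.2 against 42.1 FPKM at 100 days, and 6.45 FPKM at 700 days against 19.1 FPKM at 50 days in control skin, where its log2 ratio was -1.43. Rarres2, which encodes the attractant chemerin, had 19.7 FPKM in cKO against 29.7 FPKM in control skin at 300 days and 35.9 against 51.3 FPKM at 100 days. Mif, a cytokine that binds Cxcr4, had 29.0 against 23.4 FPKM at 300 days and 31.1 against 24.6 FPKM at 100 days.

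Lymphatic endothelium, the vessel that carries Ccr7-bearing cells out of skin, summed over its 6 markers to 32.4 FPKM in cKO against 15.3 FPKM in control skin at 100 days, with 2 of the 5 that passed higher, and to 21 against 28.2 FPKM at 300 days, with 1 of 5 lower.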
